A study of Homo sapiens with 12 samples.

Results

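The 10 genes described here encode cyclins, cyclin-dependent kinase (CDK) inhibitors and E2F transcription factors that act around the passage from G1 into S phase: the cyclins CCND1, CCND3, CCNE1 and CCNE2, the inhibitors CDKN1B and CDKN2C, and the E2F factors E2F1, E2F2, E2F7 and E2F8. They were taken by gene symbol from a table of 26475 entries, in which all 10 were found, and all 10 were among the 15353 genes with enough counts to test. RNA was measured in A375 cells, an established human melanoma line, after 24 h in 4 treatments with 3 libraries each: OF1 and XL413 together (OF1+XL413), XL413 alone, OF1 alone, and DMSO, in which no inhibitor was given. XL413 inhibits CDC7, the kinase that starts DNA replication by phosphorylating the MCM helicase, and was used at 1 µM. OF1 inhibits the bromodomains of BRPF1, BRPF2 and BRPF3, scaffold subunits of histone acetyltransferase complexes, and was also used at 1 µM. The combination had both at these doses. All 4 groups are the same line in the same medium, and no cells were sorted by cell cycle phase, so an altered share of cells in a phase and altered RNA per cell cannot be told apart in these bulk libraries.

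In the cycle, D-type cyclins bind CDK4 and CDK6 and E-type cyclins bind CDK2. Both kinase complexes phosphorylate the retinoblastoma protein RB1, which then releases the activating factors E2F1 and E2F2, and these switch on genes for entry into S phase, CCNE1 and CCNE2 among them. CDKN2C (p18) blocks CDK4 and CDK6, and CDKN1B (p27) blocks mainly cyclin E with CDK2. E2F7 and E2F8 are atypical repressors that shut the same genes off later in S phase. In melanoma the MAP kinase pathway is a known driver of CCND1.

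The E2F genes are themselves regulated by E2F, so the 250 bases upstream of the members' RefSeq start sites (GRCh38.p14) were searched on both strands for 3 words known from E2F sites. TTCCCGC was in 5.52% of all 35116 promoter windows of that length, the word TTGGCGC in 2.56% and the word TTCGCGC in 1.85%. Promoter entries matched 7 members in 11 windows (CCND3, CCNE1, CDKN1B, CDKN2C, E2F1, E2F2 and E2F7), and none of CCND1, CCNE2 and E2F8. At least 1 of the 3 words was found in 4 of the 11 windows, against 9.32% of all windows. The 140 bases before the start are shown for the 4 members with a match, 5′ to 3′ on the gene's strand, with the matched letters in capitals. Where the capitals read GCGCCAA the word TTGGCGC stands on the other strand, and where they read GCGGGAA it is the word TTCCCGC.
E2F1: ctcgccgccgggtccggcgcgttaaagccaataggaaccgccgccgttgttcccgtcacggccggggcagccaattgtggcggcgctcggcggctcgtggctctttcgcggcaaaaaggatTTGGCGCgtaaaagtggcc
E2F2: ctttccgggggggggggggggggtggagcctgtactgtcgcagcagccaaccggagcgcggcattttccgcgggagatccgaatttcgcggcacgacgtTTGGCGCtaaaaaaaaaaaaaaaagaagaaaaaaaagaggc
E2F7: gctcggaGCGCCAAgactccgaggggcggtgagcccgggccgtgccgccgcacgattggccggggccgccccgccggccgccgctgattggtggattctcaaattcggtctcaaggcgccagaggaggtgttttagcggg
CDKN2C: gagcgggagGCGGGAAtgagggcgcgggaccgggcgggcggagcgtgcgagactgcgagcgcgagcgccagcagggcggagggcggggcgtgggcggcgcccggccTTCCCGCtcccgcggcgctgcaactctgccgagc
The E2F1 stretch is chr20:33686386-33686525 on the minus strand, with TTGGCGC 19 bases before the start. The E2F2 stretch is chr1:23531234-23531373, minus strand, with the same word 41 bases before the start, and the E2F7 stretch is chr12:77065570-77065709, minus strand, with it 133 bases before the start on the opposite strand. The CDKN2C stretch is chr1:50968566-50968705, plus strand, before a start that lies inside the annotated gene, with TTCCCGC at 131 and 34 bases. None of the printed matches overlaps another. The windows of CCND3, CCNE1 and CDKN1B held none of the 3 words. A match is a description of letters, and binding was not measured.

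The libraries held 30499559 to 36062138 counts, with a median of 33319779, and the common biological coefficient of variation was 0.0487. SOX10, a transcription factor of the melanocyte lineage, had 318 to 386 CPM (counts scaled to library size), and MITF, its master regulator, 32.8 to 44.4 CPM. The pigment genes were near or at 0: PMEL reached 1.04 CPM and TYRP1 0.543 CPM, MLANA and DCT had at most 8 and 7 counts, and TYR had none in any library. OF1+XL413 replicates 2 and 3 stood apart from the other 10 libraries on the first principal component (-33.4 and -31.5, against -7 to 15.1). The 12 skeletal muscle markers summed to 21.6 to 94.1 CPM in OF1+XL413 libraries, 124 to 274 in XL413, 121 to 281 in OF1 and 83.6 to 226 in DMSO. The 8 fibroblast markers summed to 62.4 to 163 CPM in OF1+XL413, 238 to 283 in XL413, 258 to 288 in OF1 and 218 to 275 in DMSO. None of the 12 muscle and 8 fibroblast markers was at 0 throughout. Results that involve the combination are therefore also given with its replicate 1 as the only combination library, whose spread is then assumed to be like that of the other groups. Replicate 1 was nearer to the other groups but still low in fibroblast markers. Their mean log2 CPM was 3.46 in it, against 3.64 to 3.87 in the libraries of the other 3 groups. The use of replicate 1 alone thus lessens this difference and does not remove it.

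Scaled to the merged length of each gene's exons, CCND1 was by far the most abundant of the 10, with a mean of 137 CPM per kb over the 12 libraries. E2F1 followed at 27.5, CDKN1B at 22.3, CDKN2C at 19.7 and CCND3 at 14.9 CPM per kb, and the library ranges of these 5 genes did not overlap. E2F7 (10.1), CCNE2 (9.64) and CCNE1 (8.63 CPM per kb) came next. The ranges of E2F7 and CCNE2 overlapped, as did those of CCNE2 and CCNE1. E2F8 and E2F2 were lowest, at 3.15 and 2.73 CPM per kb, again with overlapping ranges. Each gene's own level moved little across treatments: the highest library was 1.09 times the lowest for CDKN1B and 1.33 times for CCNE2, with the other 8 genes between these. The lowest member count in any library was 371 (E2F8), so for the low genes E2F8 and E2F2 counting error is itself a sizeable part of the spread between libraries.

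**Figure D1:**
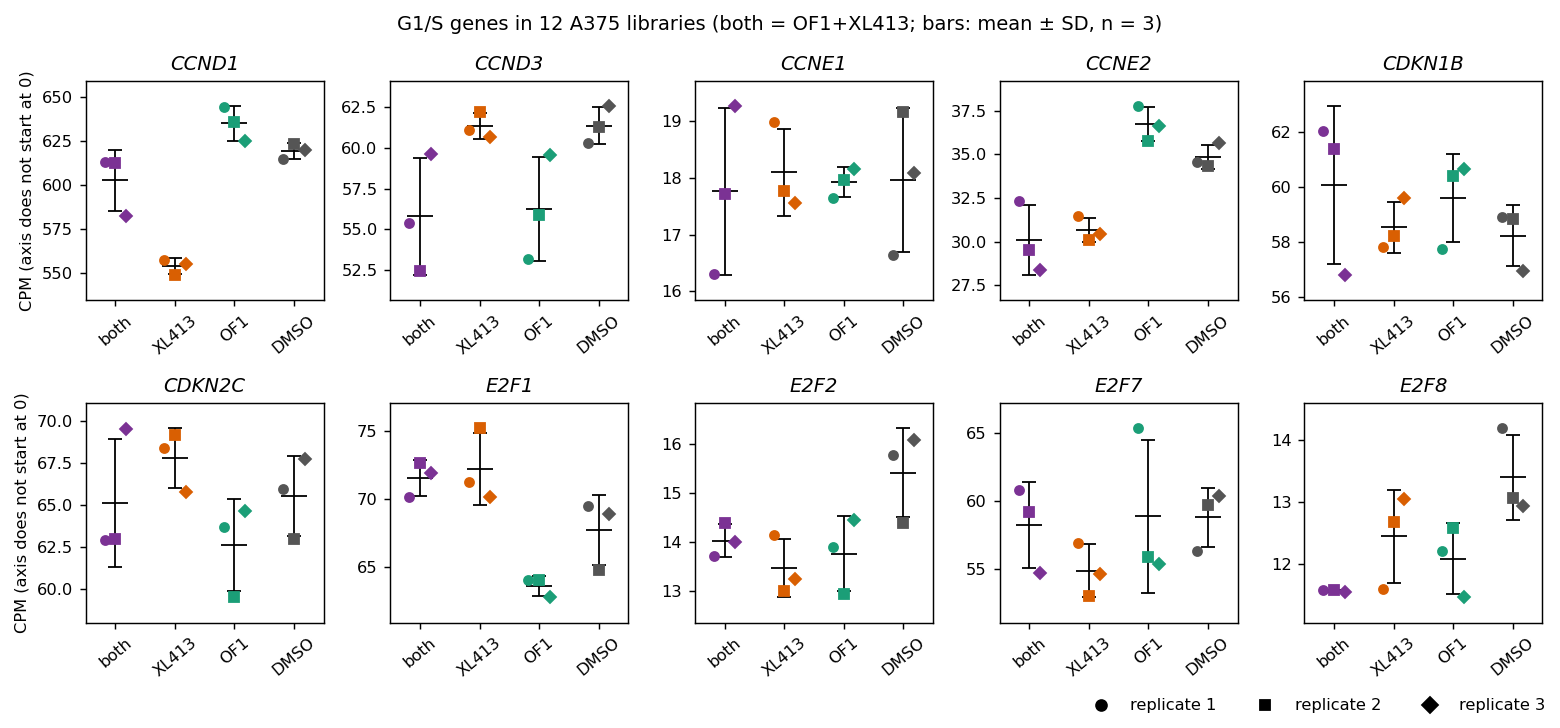
CPM of each of the 10 genes in each library (points) with the group mean and SD (bars), 3 libraries a group, "both" being OF1+XL413. CCNE2 is at 28.39 to 32.3 CPM in the 6 libraries with XL413 and at 34.36 to 37.76 in the 6 without it, while CCNE1 and CDKN1B overlap in all 4 groups.

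XL413 moved 3 of the 10 genes when its effect was averaged over cells with and without OF1: CCNE2 and CCND1 fell and E2F1 rose. The changes ran from 0.849-fold to 1.09-fold. By edgeR's quasi-likelihood test with Benjamini-Hochberg adjustment over 15353 genes, 12% of all genes were called in this comparison, 6.39% higher and 5.63% lower. The median absolute log2 change of the 10 genes was 0.07, and of all tested genes also 0.07. The 6 libraries with XL413 and the 6 without did not overlap for the same 3 genes, as for 4.12% of all genes. The nearest libraries with and without XL413 were close for CCND1 (613.2 and 614.9 CPM) and E2F1 (70.1 and 69.49 CPM). They were further apart for CCNE2 (32.3 and 34.36 CPM).

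CCNE2, cyclin E2, which activates CDK2, showed the largest average XL413 effect of the 10. It had 32.3, 29.54 and 28.39 CPM in OF1+XL413 libraries, 31.46, 30.09 and 30.43 in XL413, 37.76, 35.79 and 36.65 in OF1 and 34.56, 34.36 and 35.65 in DMSO. Every library with XL413 was below every library without it. The average XL413 effect was -0.24 ± 0.03 on the log2 scale (SE), 0.849-fold, with an adjusted p of 0.00082, and it passed the threshold in all 18 alternatives, with log2 changes between -0.27 and -0.19. Against OF1, the combination was 0.818-fold (log2 -0.29 ± 0.05, adjusted p = 0.00515), and against DMSO 0.863-fold (-0.21 ± 0.05, adjusted p = 0.0129). XL413 alone against DMSO gave -0.18 ± 0.05, which missed the threshold in edgeR (adjusted p = 0.055) and passed it in DESeq2 (0.0495). In edgeR it passed only without OF1+XL413 replicate 1 (0.0214), without OF1+XL413 replicate 3 (0.0334) and with combination replicate 1 alone (log2 -0.18). These settings left out combination libraries, which are on neither side of this comparison. It did not pass in the remaining alternatives. With combination replicate 1 alone, CCNE2 still fell for the average XL413 effect (-0.19, adjusted p = 0.00878), but not against DMSO (-0.11, adjusted p = 0.324) or OF1 (-0.19, adjusted p = 0.213). The call against DMSO was also lost without DMSO replicate 3 and without OF1+XL413 replicate 2, over a range of -0.27 to -0.11. OF1 had no called effect on CCNE2 (average log2 0.02, 95% interval -0.05 to 0.10).

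CCNE1, cyclin E1, the other partner of CDK2, was not called in any of the 8 comparisons. It had 16.31, 17.71 and 19.26 CPM in OF1+XL413 libraries, 18.98, 17.76 and 17.55 in XL413, 17.64, 17.96 and 18.16 in OF1 and 16.64, 19.16 and 18.08 in DMSO. All 4 groups overlapped. Its average XL413 effect was 0.00 on the log2 scale with a 95% interval of -0.10 to 0.10, and the interval for CCNE2 was -0.31 to -0.16. Its average OF1 effect was -0.02 (-0.12 to 0.09). The difference between the E cyclins was not tested.

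CCND1, cyclin D1, the partner of CDK4 and CDK6, was called in both directions, lower with XL413 and higher with OF1. It had 613.2, 612.4 and 582.6 CPM in OF1+XL413 libraries, 557.6, 548.9 and 555.2 in XL413, 644.6, 635.7 and 625.2 in OF1 and 614.9, 623.7 and 619.8 in DMSO. The XL413 libraries were the lowest of the 12, the OF1 libraries the highest, and the combination lay between XL413 and DMSO. XL413 alone gave 0.894-fold of DMSO (log2 -0.16 ± 0.03, adjusted p = 0.00951), the only call among the 10 genes in that comparison, where 2.8% of all genes were called. That call was lost without DMSO replicate 2 and without XL413 replicate 2 (log2 -0.17 to -0.15 over the 18 alternatives, highest adjusted p 0.0632). The average XL413 effect, -0.12 ± 0.02 (0.921-fold, adjusted p = 0.00236), passed in all 18 alternatives and with combination replicate 1 alone was -0.11. In cells with OF1, XL413 gave CCND1 a smaller change of -0.08 ± 0.03, which was not called (adjusted p = 0.131). Of the 18 alternatives only leaving out OF1+XL413 replicate 1 brought that change past the threshold (adjusted p = 0.0459). The departure of CCND1 from additivity was 0.09 ± 0.04 and was not called (adjusted p = 0.492).

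With OF1 the values of CCND1 were higher. The combination was 1.09-fold of XL413 (log2 0.12 ± 0.03, adjusted p = 0.0298), the only member called there, with 3.41% of all genes. The average OF1 effect was 0.08 ± 0.02 (1.06-fold, adjusted p = 0.0374). Neither was firm. The first was lost in 8 of the 18 alternatives, with replicate 1 as the only combination library among them (0.15, adjusted p = 0.0578), and also when any of XL413 replicates 1, 2 and 3, DMSO replicate 2, OF1 replicate 2 or OF1+XL413 replicate 1 or 2 was left out, over 0.10 to 0.15. The second was lost in 10, over 0.07 to 0.09 with adjusted p up to 0.102: with no filter on low counts, and without any DMSO or XL413 library, OF1 replicate 1 or 2, or OF1+XL413 replicate 2. OF1 alone against DMSO, 0.04 ± 0.03, was not called (adjusted p = 0.611), and the combination against DMSO, -0.04 ± 0.03, was not either (adjusted p = 0.423).

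CCND3, cyclin D3, was the member called lower for the average OF1 effect. It had 55.38, 52.42 and 59.59 CPM in OF1+XL413 libraries, 61.1, 62.21 and 60.64 in XL413, 53.2, 55.91 and 59.56 in OF1 and 60.28, 61.26 and 62.54 in DMSO. The 6 libraries with OF1 (52.42 to 59.59 CPM) lay below the 6 without it (60.28 to 62.54 CPM), which held for 1 of the 10 genes and for 2.5% of all genes. The average OF1 effect was -0.13 ± 0.04, 0.913-fold, with an adjusted p of 0.0437. In that comparison 4.94% of all genes were called, and 2 of the 10. Neither of the comparisons that it averages was called for CCND3 in edgeR. OF1 against DMSO gave -0.13 ± 0.05 (adjusted p = 0.254) and the combination against XL413 -0.14 ± 0.05 (adjusted p = 0.164). Of the 18 alternatives only leaving out OF1+XL413 replicate 3 brought the second past the threshold (-0.19, adjusted p = 0.0337). The CCND3 call for the average OF1 effect was lost in 10 of the 18 alternatives (-0.16 to -0.11, adjusted p up to 0.101). These were without any DMSO or XL413 library, OF1 replicate 1 or 2, or OF1+XL413 replicate 1 or 2. The average OF1 effect with combination replicate 1 alone was -0.14. XL413 gave CCND3 an average log2 change of -0.01 (95% interval -0.08 to 0.07).

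Neither CDK inhibitor was called in any of the 8 comparisons. CDKN1B had 62.05, 61.41 and 56.81 CPM in OF1+XL413 libraries, 57.82, 58.25 and 59.6 in XL413, 57.77, 60.43 and 60.67 in OF1 and 58.91, 58.85 and 56.96 in DMSO. Its range over the libraries was the narrowest of the 10 genes, and all groups overlapped. Its average log2 change was 0.01 for XL413 (95% interval -0.05 to 0.07) and 0.04 for OF1 (-0.03 to 0.10). CDKN2C had 62.89, 62.98 and 69.56 CPM in OF1+XL413 libraries, 68.41, 69.18 and 65.76 in XL413, 63.7, 59.48 and 64.66 in OF1 and 65.95, 62.99 and 67.74 in DMSO. Its group means were highest with XL413 (67.78 ± 1.79 CPM, SD) and lowest with OF1 (62.61 ± 2.75), but the average changes of 0.05 for XL413 (-0.02 to 0.12) and -0.06 for OF1 (-0.13 to 0.01) both had intervals that reached past 0. These are RNA levels, and p27 in particular is known to be controlled largely through the stability of the protein.

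E2F1, an activating E2F, was the member called higher for the average XL413 effect. It had 70.1, 72.63 and 71.87 CPM in OF1+XL413 libraries, 71.26, 75.15 and 70.16 in XL413, 64.05, 64.04 and 62.77 in OF1 and 69.49, 64.75 and 68.85 in DMSO. The 6 libraries with XL413 (70.1 to 75.15 CPM) lay above the 6 without (62.77 to 69.49 CPM). The average XL413 effect was 0.13 ± 0.03, 1.09-fold, with an adjusted p of 0.00844. It passed in 17 of the 18 alternatives, and with combination replicate 1 alone it was 0.12 with an adjusted p of 0.0562. The combination was 1.12-fold of OF1 (0.17 ± 0.04, adjusted p = 0.0254), a comparison in which 2 of the 10 genes and 5.5% of all genes were called. That call was lost in 6 alternatives, over 0.14 to 0.18: without any of the OF1 libraries, without OF1+XL413 replicate 2 or 3, and with combination replicate 1 alone (0.14, adjusted p = 0.331). XL413 alone against DMSO gave 0.09 ± 0.04 and the combination against DMSO 0.08 ± 0.04, and neither was called (adjusted p = 0.217 and 0.215). The OF1 libraries were all below the DMSO libraries, at -0.09 ± 0.04, which was not called in edgeR (adjusted p = 0.311).

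E2F2, the other activating E2F here, was not called in any comparison. It had 13.7, 14.38 and 13.99 CPM in OF1+XL413 libraries, 14.13, 13 and 13.24 in XL413, 13.9, 12.92 and 14.44 in OF1 and 15.77, 14.38 and 16.08 in DMSO. All 3 treated groups had means below that of DMSO: 14.02 ± 0.342 in OF1+XL413, 13.46 ± 0.598 in XL413, 13.75 ± 0.771 in OF1 and 15.41 ± 0.906 in DMSO (SD, n = 3). None of these differences was called (log2 -0.14 with adjusted p = 0.196, -0.19 with 0.117 and -0.16 with 0.254), and the comparisons share the DMSO libraries. E2F2 was also the member with the largest departure from additivity (the log2 change of the combination minus those of the 2 inhibitors alone), 0.22 ± 0.09 (95% interval 0.03 to 0.42), which was not called (adjusted p = 0.395).

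Among the atypical repressors, E2F7 had 60.84, 59.23 and 54.76 CPM in OF1+XL413 libraries, 56.92, 53.05 and 54.68 in XL413, 65.33, 55.87 and 55.42 in OF1 and 56.36, 59.7 and 60.39 in DMSO. OF1 replicate 1 was the highest of the 12, and the groups overlapped. Its average log2 changes were -0.06 for XL413 (95% interval -0.15 to 0.03) and 0.04 for OF1 (-0.05 to 0.14). E2F8 had 11.58, 11.58 and 11.56 CPM in OF1+XL413 libraries, 11.61, 12.68 and 13.05 in XL413, 12.21, 12.59 and 11.47 in OF1 and 14.18, 13.06 and 12.94 in DMSO. The combination libraries were all below DMSO, at 0.864-fold, which was not called (-0.21 ± 0.07, adjusted p = 0.0526). Of the 18 alternatives only leaving out XL413 replicate 1 brought it past the threshold (adjusted p = 0.047), while DESeq2 gave 0.111 and combination replicate 1 alone 0.262. The average OF1 effect on E2F8 was -0.13 ± 0.05 (adjusted p = 0.137).

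**Figure D2:**
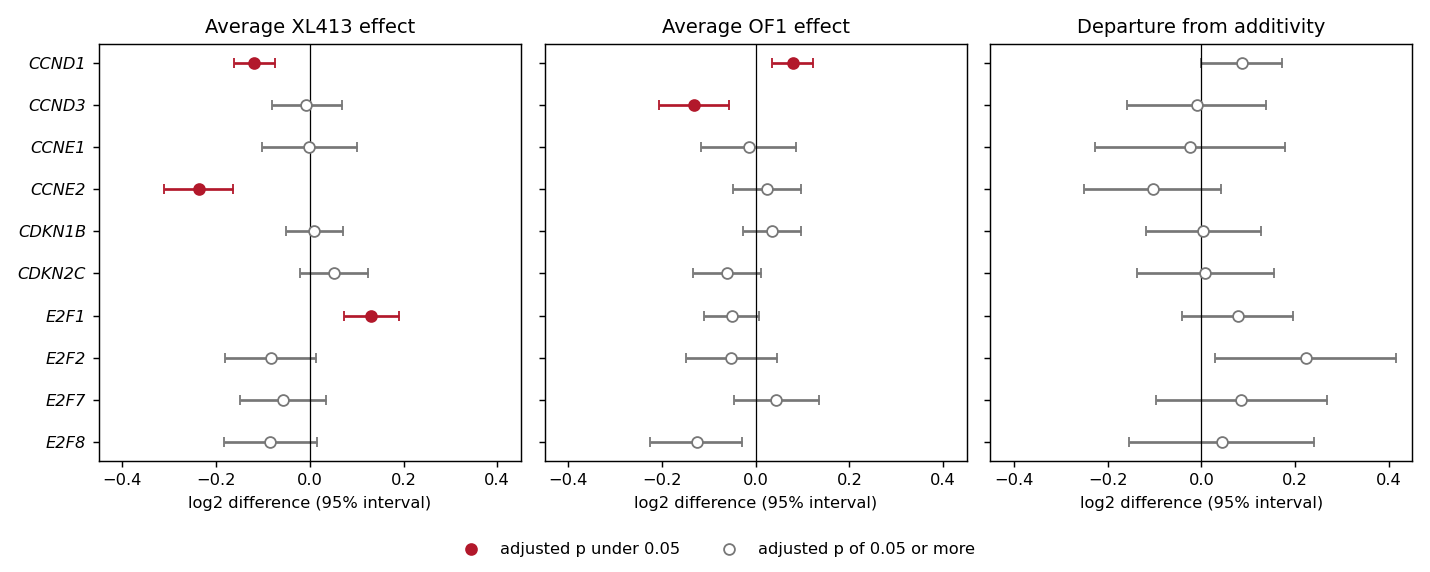
Average log2 change of each of the 10 genes for XL413 and for OF1 over cells with and without the other inhibitor, with unadjusted 95% intervals from edgeR; filled points had an adjusted p under 0.05. CCNE2 (-0.24), CCND1 (-0.12) and E2F1 (0.13) are filled for XL413, and CCND1 (0.08) and CCND3 (-0.13) for OF1.

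Over the comparisons against DMSO, 1 of the 10 genes was called for the combination (CCNE2, with 10.7% of all genes), 1 for XL413 (CCND1) and none for OF1, where 1.15% of all genes were called. An unadjusted edgeR p under 0.05 was reached by 3 members for the combination (25.6% of all genes) and 4 for XL413 (18.6%). For OF1, 4 members had an unadjusted p under 0.05 (CCND3 -0.13, E2F1 -0.09, E2F2 -0.16 and E2F8 -0.15 on the log2 scale), as did 14.4% of all genes. DESeq2 called none of the 7 members to which it gave an adjusted p, and it gave none to CCNE1, E2F2 and E2F8. These 3 comparisons share their DMSO libraries. The median log2 change of the 10 genes was -0.03 for the combination, -0.05 for XL413 and -0.03 for OF1, with 0 for all tested genes in each. For the departure from additivity edgeR called none of the 10 and 0% of all genes. At an unadjusted p under 0.05 it gave 1 member and 1566 of all genes, and DESeq2 called 101 genes and no member.

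Among other genes of the same machinery the calls went both ways: of 23 further G1/S genes, 3 rose and 2 fell with XL413 on average, 18 were not called, and the median log2 change was -0.01, where 6.39% of all genes rose and 5.63% fell. RBL1, the p107 relative of RB1, rose most clearly, with 61.31 ± 2.56 CPM in OF1+XL413, 54.53 ± 2.01 in XL413, 51.4 ± 1.65 in OF1 and 47.53 ± 1.25 in DMSO (SD, n = 3), an average XL413 effect of 0.23 ± 0.03 with adjusted p = 0.000522. CDK2, the kinase bound by E cyclins, rose by 0.12 (adjusted p = 0.00507), and CKS1B, a CDK subunit that helps degrade p27, by 0.17 (adjusted p = 0.0144). SKP2, the ubiquitin ligase subunit that targets p27, fell, with 61.82 ± 3.15 CPM in OF1+XL413, 63.19 ± 2.2 in XL413, 71 ± 0.672 in OF1 and 71.38 ± 1.6 in DMSO (average XL413 effect -0.19 ± 0.03, adjusted p = 0.00145). CDKN1C, the p57 inhibitor of the CDKN1B family, fell with both inhibitors, with average effects of -0.19 for XL413 (adjusted p = 0.0387) and -0.38 ± 0.06 for OF1 (adjusted p = 0.00123). RBL1, CDK2 and SKP2 passed for XL413 in all 18 alternatives, and CDKN1C did so for OF1. With combination replicate 1 alone the XL413 calls of CKS1B (0.11, adjusted p = 0.101) and CDKN1C (-0.16, adjusted p = 0.21) were lost, and the second of these was lost in 11 of the 18. OF1 called 1 risen gene of the 23 (RBL1, 0.14, adjusted p = 0.017) and 2 fallen, CDKN1C and CDKN2A, the p16 gene (-0.37, adjusted p = 0.0466), against 4.94% of all genes called. CDKN2A was lost in 9 alternatives, with combination replicate 1 alone among them, and RBL1 in 4.

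Of 20 replication genes that E2F factors are known to drive, 10 rose and 1 fell with XL413 on average, with a median log2 change of 0.10, against the same shares of all genes (6.39% higher, 5.63% lower). XL413 alone against DMSO had 1 of the 20 called higher and 1 lower (2.8% of all genes called), with 15 positive changes. The combination against OF1 had 8 called higher and 0 lower (5.5% of all genes called). MCM3, a subunit of the MCM helicase, had 220.4 ± 9.85 CPM in OF1+XL413, 218.3 ± 3.01 in XL413, 171.3 ± 2.92 in OF1 and 178.4 ± 2.19 in DMSO (average 0.33 ± 0.02, adjusted p = 2.04e-06). NASP, a histone chaperone (0.16), MCM4 (0.14), MCM7 (0.15) and TK1, thymidine kinase (0.20), also rose. RRM2, the small subunit of ribonucleotide reductase, was the 1 that fell (average -0.09, adjusted p = 0.00936). With OF1 none of the 20 rose and 2 fell (4.94% of all genes were called), TYMS, thymidylate synthase (-0.15, adjusted p = 0.011), and MCM2 (-0.08, adjusted p = 0.0466), the second of which was lost in 12 alternatives.

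Of 14 genes of G2 and mitosis, 11 were called higher with XL413 and none lower, against 6.39% higher and 5.63% lower of all genes, with a median log2 change of 0.24. CDK1, the mitotic kinase, had 151.5 ± 2.3 CPM in OF1+XL413, 141 ± 5.53 in XL413, 109 ± 2.11 in OF1 and 104 ± 1.09 in DMSO (average 0.46 ± 0.02, adjusted p = 1.53e-07). HMMR, a spindle protein (0.60), UBE2C, a ubiquitin-conjugating enzyme that works with the anaphase-promoting complex (0.55), TOP2A, a topoisomerase (0.37), and AURKA, a mitotic kinase (0.27), rose too. CENPF was the 1 gene of the 14 with a negative average change (-0.12), which was not called. It had 412.2 ± 37.5 CPM in OF1+XL413, 368.6 ± 15 in XL413, 423.2 ± 22.4 in OF1 and 422 ± 7.44 in DMSO. With OF1 none of the 14 rose and 2 fell, AURKA (-0.09, adjusted p = 0.0116) and PLK1, another mitotic kinase (-0.10, adjusted p = 0.0326), against 4.94% of all genes called. AURKA passed in all 18 alternatives, and PLK1 was lost in 7 of them (adjusted p up to 0.0821). With combination replicate 1 alone the XL413 counts were 3 risen and 1 fallen G1/S genes, 8 risen and 1 fallen replication genes, and 11 risen and no fallen G2/M genes. The lists are given beside the 10 genes as counts, and whether they differ from each other was not tested. The members and lists were chosen with earlier results of these data known. Their counts beside the shares of all genes are therefore a description and not independent support.

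**Figure D3:**
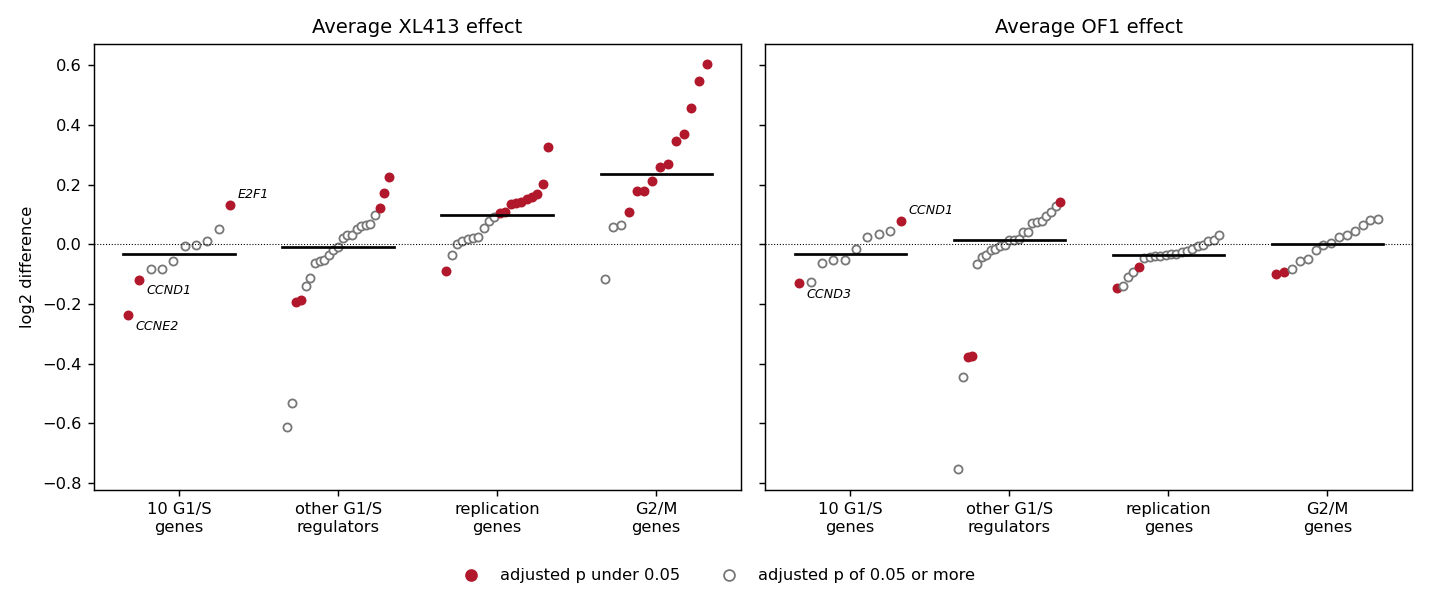
Average log2 change of each gene for XL413 and for OF1 in the 10 genes described, 23 further G1/S genes, 20 E2F replication targets and 14 G2/M genes, with black bars at the list medians. For XL413 the medians are -0.03, -0.01, 0.10 and 0.24 in that order. The lists were chosen with earlier results of these data known.

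The genes whose levels followed each called member most closely over the 12 libraries were taken by Pearson's r of log2 CPM among 12063 candidates. The libraries share treatments, so r is also given for deviations from the group means. TMPO, which encodes nuclear lamina-associated proteins, followed CCNE2 with r = 0.984 (0.92 within groups), then HDAC2, a histone deacetylase (0.959, 0.82 within groups), and OTUD3, a deubiquitinase (0.957, 0.75). CCND1 was followed by SRSF6, a splicing factor (0.974, 0.83 within groups), CSNK1A1, a casein kinase (0.959, 0.74), and PYROXD1 (0.956, 0.66). The values for E2F1 were 0.936 for SPAG5 (0.69 within groups), 0.933 for COPG1 (0.65) and 0.933 for FLOT2 (0.74). Those for CCND3 were 0.937 for PSMD3 (0.96 within groups), 0.933 for HSD17B3 (0.89) and 0.92 for TACO1 (0.9). These are the highest of many candidates and are given as a description.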

How the data were processed

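The 12 libraries of A375 RNA were made from poly(A) RNA with strand marking per the labels' protocols. The submitters describe 3 biological replicates a group but not separate cultures, so the p-values reflect variation among these libraries, which may be technical. Per gene symbol, expected counts were deposited by the authors, and the submitters' processing notes name hg38, RSEM 1.2.15 and Bowtie2 2.1.0. Annotation and strand setting: not given in the sources used here. All values were rounded (10.6% were not whole). Of 26475 entries 5357 had no counts.

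Genes passing filterByExpr (15353) were fitted in edgeR 4.0.16 (R 4.3.3, limma 3.58.1) with TMM factors and 1 mean per group, leaving 8 residual degrees of freedom. Each of 8 comparisons was tested by quasi-likelihood, and a gene was called at a Benjamini-Hochberg adjusted p under 0.05. A standard error is the absolute log2 change over the square root of F. CPM uses TMM library sizes. Lengths are merged exons of basic protein-coding GENCODE transcripts, and promoters are RefSeq's on GRCh38.p14. Alternatives were DESeq2 1.42.0, RLE or upper-quartile factors, no filter, the replicate number as a block, leaving out each library, and combination replicate 1 alone. The fit was also run on simulated data, with larger changes than those of the called members and the same spread in every group. That run does not bear on changes as small as those of the members. Replicates of a group differed by more than counting noise.

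The members and lists were chosen with earlier results of these data known. Named are all 10 members and up to 5 passing genes of smallest p per list for each average effect. For each called member the 3 genes of highest Pearson r are named (log2 CPM, prior count 2, average of at least 1, clones and pseudogenes skipped). RRM2 and CENPF are named for their negative changes with XL413, and CCND2 and CDKN2B after their values were seen.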

Additional observations from a re-analysis of the deposited data

How the results depend on the processing

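Of 181 results for single genes (each member in each comparison, and the called list genes, whose alternatives were chosen after seeing the data), 111 were called, and none reversed in 18 alternatives. Of 3255 values, 2963 stayed on their side of the threshold, 284 lost the call and 8 gained it. DESeq2 gave no adjusted p for 3 of these results (CCNE1, E2F2 and E2F8 for OF1 against DMSO). Counting error limits the low members, E2F8 and E2F2, most.

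For XL413 against DMSO, DESeq2 called 650 genes and 2 members, and combination replicate 1 alone 848 and 2. For OF1 against DMSO these gave 372 and 414 genes. With combination replicate 1 alone, calls were 857 genes and 0 members for OF1+XL413 against DMSO, 155 and 0 against XL413, 53 and 0 against OF1, and 951 genes for the average XL413 effect. With no filter the average OF1 effect called 1 member. For the departure from additivity DESeq2 called 101 genes, no filter 132, the replicate block 2 and combination replicate 1 alone 1. The cause of these shifts was not tested. Replicate 1 alone leaves fewer libraries. With it more genes were called for XL413 and for OF1 against DMSO. Fewer were called for the combination against DMSO, XL413 and OF1 and for the average XL413 effect.

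Leaving out 1 library at a time gave 86 to 722 genes and 0 to 2 members for XL413 against DMSO, 42 to 388 and 0 to 0 for OF1, and 728 to 2113 and 0 to 2 for OF1+XL413. It gave 168 to 828 and 0 to 2 for OF1+XL413 against XL413, and 212 to 2227 and 1 to 3 against OF1. It gave 1050 to 2903 and 3 to 3 for the average XL413 effect, 412 to 1117 and 0 to 2 for the average OF1 effect, and 0 to 362 and 0 to 0 for the departure.

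Replicate numbers are shared across groups, but in 1 of 18 pairs did same-numbered libraries correlate above 0.1 (-0.16 to 0.2), and 1 of 12 libraries correlated best with its own number, so the numbers were not used as pairs. With the number as a block, 10 of 10 called member results stayed called.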

Other observations

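CCND2, cyclin D2, was chosen after its values were seen. It had 1.273, 0.3924 and 0.4051 CPM in OF1+XL413 libraries, 1.19, 1.405 and 2.716 in XL413, 1.66, 1.725 and 1.201 in OF1 and 1.919, 1.614 and 1.494 in DMSO. The low values were in OF1+XL413 replicates 2 and 3, the libraries that stood apart and in which the mean log2 CPM of 12 muscle markers was -0.19 and 0.69, against 1.94 in OF1+XL413 replicate 1 and 1.83 to 3.92 in the other 3 groups. The combination against DMSO was -1.29 ± 0.40 on the log2 scale and was not called (edgeR adjusted p = 0.0524). CDKN2B, the p15 inhibitor, also chosen after its values were seen, had 0.3172 ± 0.226 CPM in OF1+XL413 and 0.6534 ± 0.131 in DMSO (SD, n = 3, edgeR adjusted p = 0.129). The part of the muscle and fibroblast transcripts in these values was not tested.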
